A study of Mus musculus with 28 samples.

Results

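The genes described here are those of glycolysis and of the HIF (hypoxia-inducible factor) response in mouse bone marrow derived macrophages. The list was drawn up with earlier results of these data known. Its genes were found by gene symbol, and where a gene has several probe sets the one that was brightest on average over the 28 arrays stands for it. Of 32 listed genes, 30 were found among the 18194 genes measured: 14 of 16 glycolytic enzymes and all 16 of the other genes, which are transporters, regulators, HIF pathway components and HIF targets. Gpi1 and Eno1 are not named by the probe annotation used here and have no value. The series compared macrophages from Nrf2+/+ and Nrf2-/- mice and asked what follows when KEAP1, the protein that holds NRF2 in check, is bound by the small molecule RA839 or depleted by siRNA.

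All mice were C57BL/6 J and 12 weeks old, and all cells were macrophages grown from whole bone marrow. In the compound experiment, wild-type (Nrf2+/+) and knockout (Nrf2-/-) cells received RA839 or the solvent DMSO alone for 4 h at a fixed 0.2% DMSO, which gave 4 groups, called here WT_DMSO, WT_RA839, KO_DMSO and KO_RA839. The design text writes the compound once as RA838, while the sample labels and the title give RA839. In the siRNA experiment, Nrf2+/+ cells received siControl or 1 of 2 siRNAs, siKeap1-1 or siKeap1-2. Each of the 7 groups has 4 arrays, stated to be biological replicates. The sources used here do not give the dose of RA839, the duration of the siRNA treatment, the deleted part of Nrf2 or whether mice were pooled. The compound and siRNA arrays differ in overall scale, so levels were compared only within an experiment.

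Glycolysis splits glucose into pyruvate, which is either reduced to lactate by lactate dehydrogenase or passed to the mitochondria through pyruvate dehydrogenase. HIF-1 is a pair of proteins whose alpha subunit, encoded by Hif1a, is marked for destruction by oxygen-dependent prolyl hydroxylases (the Egln genes). When HIF is stable it raises glucose transporters, most glycolytic enzymes, Pdk1 (which blocks pyruvate entry into the mitochondria) and genes such as Vegfa, Adm and Ndrg1, and inflammatory macrophages are well known for a strong glycolytic programme. NRF2 binds antioxidant response elements in DNA, and KEAP1 directs its degradation.

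The labels were checked against their target genes. Nfe2l2, the gene of NRF2, had a mean log2 value of 12.72 ± 0.20 (SD, n = 4) in WT_DMSO and 3.40 ± 0.11 in KO_DMSO, and Keap1 was lower by 2.03 ± 0.08 (SE) with siKeap1-1 and by 1.83 ± 0.08 with siKeap1-2 (log2 scale). The 9 macrophage markers averaged 12.11 to 13.02 on the 28 arrays, and Csf1r and Cd68 were among the brightest of them in every group. The array WT_RA839 number 2 stood apart in RNA quality. The difference between the 3′ and 5′ Gapdh control probe sets was 3.74 there and 0.73 to 1.00 on all other arrays, and the corresponding Actb difference was 3.10 there. Calls lost without both WT arrays numbered 2 are named with their values below.

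**Figure D1:**
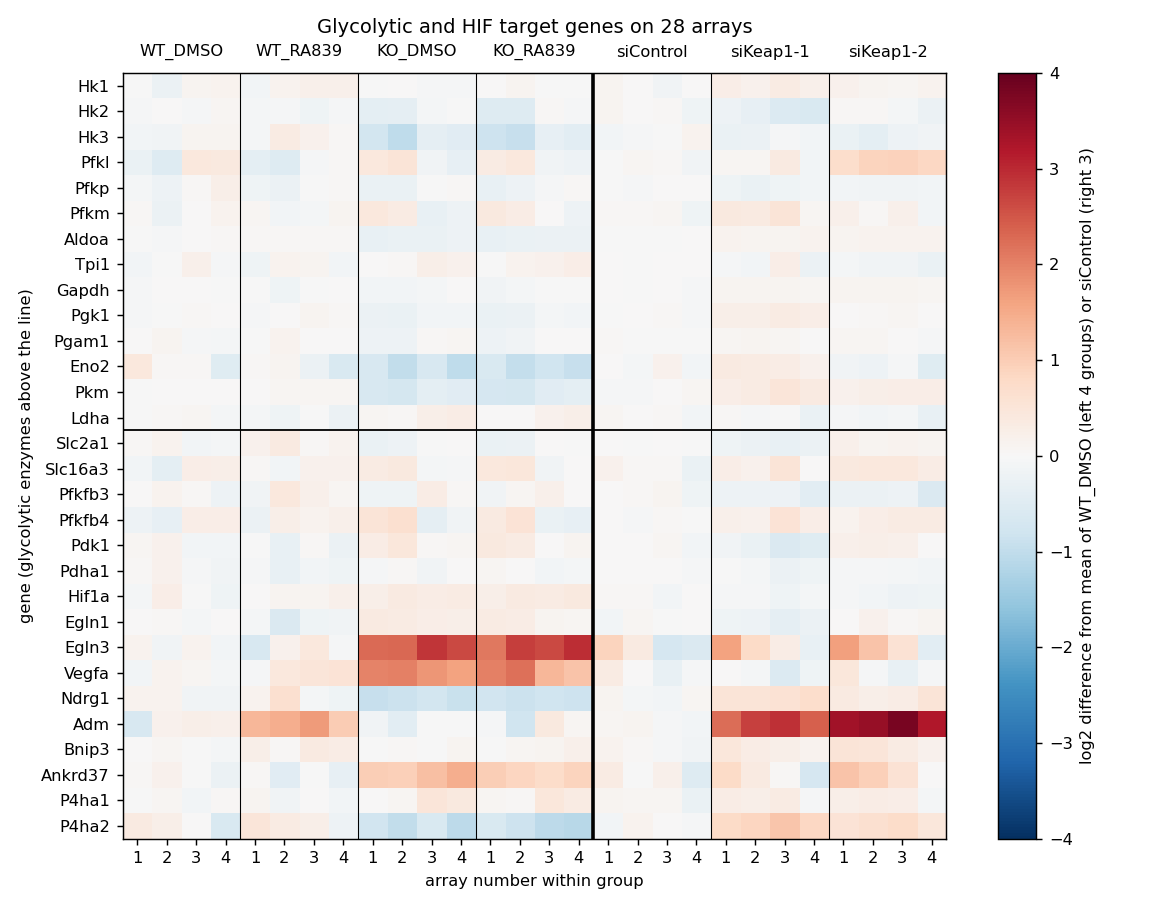
Log2 difference of each of the 30 genes (rows) on each of the 28 arrays (columns) from the mean of WT_DMSO for the 4 compound groups and of siControl for the 3 siRNA groups. Adm is raised on the WT_RA839 arrays and on all 8 siKeap1 arrays, while Egln3, Vegfa and Ankrd37 are raised on the 8 knockout arrays.

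The DNA just before the start sites is shown for 4 of the genes whose changes the results turn on: Adm and P4ha2, which rose with both Keap1 siRNAs, Pkm, which did so among the enzymes, and Egln3, which was the most raised gene of the list in the knockout. Each line gives the 250 bases before a RefSeq start site on GRCm38.p6, 5′ to 3′ on the gene's strand. Capitals mark matches, on either strand, to ACGTG or GCGTG (forms of the core of a hypoxia response element) or to TGACNNNGC (the core of an antioxidant response element).
Adm, chr7:110627407-110627656, plus strand: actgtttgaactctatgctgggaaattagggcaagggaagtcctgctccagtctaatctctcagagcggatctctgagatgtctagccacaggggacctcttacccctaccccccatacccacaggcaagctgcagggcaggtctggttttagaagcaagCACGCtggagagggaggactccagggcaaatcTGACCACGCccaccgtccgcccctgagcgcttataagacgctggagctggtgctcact
P4ha2, chr11:54100674-54100923, plus strand: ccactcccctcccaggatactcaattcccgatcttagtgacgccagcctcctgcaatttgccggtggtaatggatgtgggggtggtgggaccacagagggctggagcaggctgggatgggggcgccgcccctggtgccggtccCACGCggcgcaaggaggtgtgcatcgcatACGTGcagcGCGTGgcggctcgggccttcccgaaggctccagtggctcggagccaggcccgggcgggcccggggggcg
Pkm, chr9:59656977-59657226, plus strand, the second of its 2 listed starts: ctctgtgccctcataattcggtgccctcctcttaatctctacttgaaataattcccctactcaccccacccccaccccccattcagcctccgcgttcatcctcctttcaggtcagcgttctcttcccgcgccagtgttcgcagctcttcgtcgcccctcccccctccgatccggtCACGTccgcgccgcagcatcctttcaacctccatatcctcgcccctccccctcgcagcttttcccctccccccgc
Egln3, chr12:54203875-54204124, minus strand: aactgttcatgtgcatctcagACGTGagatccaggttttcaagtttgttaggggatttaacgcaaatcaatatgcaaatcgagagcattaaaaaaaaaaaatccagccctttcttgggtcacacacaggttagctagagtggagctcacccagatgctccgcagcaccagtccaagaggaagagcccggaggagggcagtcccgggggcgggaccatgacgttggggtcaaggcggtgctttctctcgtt

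In Adm, a GCGTG match on the minus strand began 90 bases before the start and another 54 bases before it. The second of these lies inside the single TGACNNNGC match, which began 58 bases before the start. P4ha2 held 3 hypoxia core matches, at 107, 78 and 69 bases before its start, and no TGACNNNGC. Pkm held 1 ACGTG match at 75 bases before the start shown and no match to any of the 3 motifs before its other listed start, chr9:59656326-59656575. Egln3 held 1 ACGTG match at 229 bases. Of the windows listed for Vegfa, which are not shown, chr17:46032378-46032627 held no match to any of the 3 motifs. The window chr17:46025164-46025413 held GCGTG at 218 bases and ACGTG at 211 bases. Ndrg1 has no listed start here. Over 32851 RefSeq start windows of the same length, 16.6% held ACGTG, 28.2% held GCGTG and 10.2% held TGACNNNGC. Among the 40 windows of the 29 listed genes that have one, 55% held ACGTG, 50% held GCGTG and 10% held TGACNNNGC. Many of these genes are on the list because they are known HIF targets, so the first 2 shares describe that choice. The share with TGACNNNGC is close to that of all windows. The windows were not matched for base composition, and a match is a description of the letters only.

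RA839 changed 1 of the 30 genes in wild-type macrophages, and that gene was Adm, which encodes the vasodilator peptide adrenomedullin. On the 4 WT_DMSO arrays Adm read 6.29, 7.11, 7.16 and 7.14 (log2 RMA values), and on the 4 WT_RA839 arrays it read 8.25, 8.37, 8.64 and 7.95. Every treated array lay above every DMSO array, and WT_DMSO number 1 was the lowest of its group by a wide gap. The difference was 1.38 ± 0.24 (SE) on the log2 scale, or 2.6-fold, with an adjusted p of 0.0104 (limma, Benjamini-Hochberg over all 18194 genes). No glycolytic enzyme was called in either direction, and 1 of the 16 other genes was called higher, against a background of 0.572% of all genes called higher and 0.0879% called lower. The median log2 change was -0.01 for the enzymes, 0.10 for the other genes and -0.01 for all genes. The 14 enzymes moved by -0.23 to 0.13 and the other 15 genes by -0.25 to 0.35, with adjusted p of at least 0.307. Their 95% intervals together ran from -0.74 to 0.79, so for the noisiest genes a change of that size could not be told from none. In bulk RNA, a change in the share of cells and a change in RNA per cell cannot be told apart.

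The Adm change in wild-type cells depended on the probe set and on the arrays kept. The second Adm probe set, 1416077_at, read 5.43, 5.35, 5.36 and 5.40 in WT_DMSO and 5.38, 5.26, 5.83 and 5.71 in WT_RA839. These groups overlapped, and the difference was 0.16 with an adjusted p of 0.675 (limma over 34958 probe sets). Most of these values lie below the median of every compound array (5.61 to 5.71). The first probe set, 1447839_x_at, carries the suffix that Affymetrix gave to sets with probes matching other sequences too. Without both WT arrays numbered 2 its change was 1.42 with an adjusted p of 0.059. Over all genes, the count called under RA839 was 120 on all arrays, 74 without WT_DMSO number 1, 72 without WT_RA839 number 4 and 486 with the replicate number as a block. In the blocked fit Adm was again the 1 gene of the list called, with an adjusted p of 0.00375, against 1.73% of all genes called higher.

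In Nrf2-/- macrophages none of the 30 genes was called under RA839, and 0% of all genes were (limma; 321 genes had an unadjusted p under 0.05, and the blocked fit called 0 genes). Adm read 6.78, 6.50, 6.92 and 6.90 in KO_DMSO and 6.88, 6.13, 7.32 and 6.99 in KO_RA839. The knockout groups overlapped, and the difference was 0.06 ± 0.24. The test of the difference between the genotypes' responses gave 1.32 ± 0.34 for Adm with an adjusted p of 0.395, which did not pass. In that test 0.115% of all genes passed and no listed gene did. With arrays of the same number blocked within genotype, the adjusted p for Adm was 0.076.

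**Figure D2:**
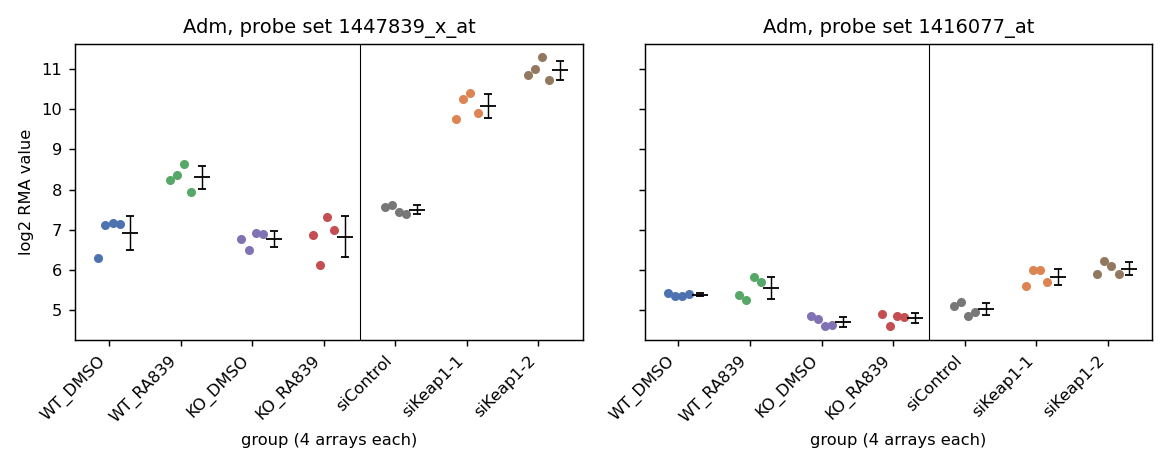
Log2 RMA value of Adm on each array (points) in the 7 groups for probe set 1447839_x_at (left) and 1416077_at (right), with group mean and SD (black). On the left the 4 WT_RA839 arrays (7.95 to 8.64) lie above the 4 WT_DMSO arrays (6.29 to 7.16). On the right these 2 groups overlap, and both siKeap1 groups lie above siControl in both panels.

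Both Keap1 siRNAs raised Adm, and it was the most changed of the 30 genes with each of them. Adm read 7.57, 7.61, 7.44 and 7.39 with siControl, 9.75, 10.25, 10.41 and 9.90 with siKeap1-1, and 10.86, 11.00, 11.29 and 10.72 with siKeap1-2. The 3 groups were fully separated, in that order. The change was 2.58 ± 0.15 (5.96-fold, adjusted p = 8.35e-07, limma) with siKeap1-1 and 3.47 ± 0.15 (11-fold, adjusted p = 1.1e-07) with siKeap1-2. Adm was lower with siKeap1-1 than with siKeap1-2 by 0.89 ± 0.15 (adjusted p = 0.00357). The second probe set read 5.11, 5.20, 4.86 and 4.95 with siControl, 5.60, 6.01, 5.99 and 5.70 with siKeap1-1, and 5.90, 6.22, 6.10 and 5.90 with siKeap1-2. It was also called higher with each siRNA, by 0.79 and 1.00, but its siKeap1 groups overlapped and their difference was -0.20 with an adjusted p of 0.404. RMA compresses differences at low values, and its part in the smaller differences of the second set was not tested.

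The knockout was then compared with the wild type. In DMSO, 4 of 14 enzymes were lower in Nrf2-/- cells (28.6%) and none was higher, and of the 16 other genes 5 were higher (31.2%) and 2 lower (12.5%). Of all genes, 11.2% were called higher and 13.8% lower. The median log2 difference was -0.10 for the enzymes, 0.16 for the other genes and -0.02 for all genes. Genotype and anything else that differed between the 2 sets of mice or cultures cannot be told apart.

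The clearest difference was in HIF pathway genes that were higher without NRF2. Egln3 encodes a prolyl hydroxylase that is itself a HIF target. It read 4.62, 4.35, 4.62 and 4.37 in WT_DMSO and 6.76, 6.79, 7.35 and 7.14 in KO_DMSO, and no array of one genotype reached the other. The difference was 2.52 ± 0.22 (adjusted p = 1.18e-06, limma). The WT_DMSO values lie below the median of every compound array (5.61 to 5.71), and the deposited values carry no call of detection, so no fold is given. Its second probe set differed by 1.46 (adjusted p = 9.82e-05). Vegfa, the angiogenic growth factor, read 7.94, 8.19, 8.14 and 7.97 in WT_DMSO and 10.04, 10.07, 9.84 and 9.66 in KO_DMSO. The genotypes were more than 1 log2 unit apart at their nearest arrays, and the difference was 1.84 ± 0.20, or 3.58-fold (adjusted p = 1.53e-05), with 0.45 (adjusted p = 0.00711) on its second, dimmer probe set. Ankrd37, a small ankyrin repeat protein known as a HIF target, read 7.07, 7.19, 7.01 and 6.79 in WT_DMSO and 8.0, 7.96, 8.23 and 8.47 in KO_DMSO. It was higher on every knockout array, by 1.15 ± 0.13 (2.22-fold, adjusted p = 2.49e-05). Smaller differences were called for Hif1a itself, 0.31 ± 0.09 (adjusted p = 0.0176), and for Egln1, the main HIF prolyl hydroxylase, 0.29 ± 0.10 (adjusted p = 0.0483). The Egln1 call was lost with quantile normalization (0.0738) and without any 1 of the WT_DMSO or KO_DMSO arrays (0.0659 to 0.11), WT_RA839 number 3 or 4, or any KO_RA839 array (0.0521 to 0.0563). For Hif1a the arrays overlapped, from 12.74 to 13.17 in WT_DMSO and from 13.15 to 13.26 in KO_DMSO. Its call was lost without WT_DMSO number 1 (adjusted p = 0.0511) or number 4 (0.056), with only these 2 groups in the fit (0.0519) and when its 4 probe sets were averaged (0.06, adjusted p = 0.647).

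Other HIF targets were lower in the knockout. Ndrg1, a stress-induced cytosolic protein, read 12.99, 12.98, 12.69 and 12.71 in WT_DMSO and 11.92, 11.99, 12.10 and 11.96 in KO_DMSO. All knockout arrays lay below all wild-type arrays, and the difference was -0.85 ± 0.14 (adjusted p = 0.000414). Its 5 probe sets differed by -0.56 to -0.96, and each was called. Without both WT arrays numbered 2, the set 1450976_at differed by -0.42 (adjusted p = 0.0857, limma) and lost its call. P4ha2, a catalytic subunit of collagen prolyl hydroxylase, read 7.08, 6.95, 6.74 and 6.11 in WT_DMSO and 5.94, 5.74, 6.10 and 5.66 in KO_DMSO. The groups only just separated, at WT_DMSO number 4, and the difference was -0.86 ± 0.20 (adjusted p = 0.00496). Its relative P4ha1 differed by 0.25 ± 0.12 (adjusted p = 0.135) and was not called. Adm did not separate the genotypes in DMSO (-0.15, adjusted p = 0.685), whereas its second probe set was lower in the knockout by 0.68 (adjusted p = 0.000823). All values of that second set in both groups lie below the median of every compound array (5.61 to 5.71).

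Among the enzymes, the 4 lower in the knockout lay at the entry and in the middle and last steps of the pathway. Eno2, an enolase, read 12.48, 12.12, 12.11 and 11.57 in WT_DMSO and 11.43, 11.07, 11.42 and 11.06 in KO_DMSO. WT_DMSO number 4 stood close to the knockout arrays, and the difference was -0.83 ± 0.18 (adjusted p = 0.00431). Hk3, a hexokinase abundant in myeloid cells, read 12.11, 12.06, 12.33 and 12.33 in WT_DMSO and 11.47, 11.18, 11.86 and 11.75 in KO_DMSO, a difference of -0.64 ± 0.16 (adjusted p = 0.00829). Pkm, the pyruvate kinase, read 13.64, 13.66, 13.67 and 13.67 in WT_DMSO and 13.02, 12.97, 13.26 and 13.21 in KO_DMSO. The wild-type arrays were nearly identical and all higher, and the difference was -0.55 ± 0.09 (adjusted p = 0.000346). Aldoa, the aldolase, was lower by a small but regular amount: 14.32, 14.29, 14.34 and 14.38 against 14.05, 14.06, 14.08 and 14.12, or -0.26 ± 0.06 (adjusted p = 0.00541). On the mean of the 5 Aldoa probe sets the difference was -0.17 (adjusted p = 0.0508). The dimmest of them, 1447734_x_at, went the other way. It read 9.03, 9.12, 9.03 and 8.83 in WT_DMSO and 9.21, 9.16, 9.29 and 9.21 in KO_DMSO. Without both WT arrays numbered 2 it differed by 0.26 (adjusted p = 0.0274, limma), and the other sets by -0.25 to -0.33. All 5 sets carry the _x_at suffix, so no Aldoa call could be checked without such sets. The 10 other enzymes differed by -0.21 to 0.15.

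No glucose or lactate transporter, Pfkfb regulator or pyruvate dehydrogenase gene of the list was called in DMSO. For several of these the spread inside a genotype was as wide as any difference between them. Pfkl, the liver-type phosphofructokinase, read 9.46, 9.21, 10.15 and 10.13 in WT_DMSO and 10.16, 10.26, 9.61 and 9.42 in KO_DMSO. Pfkfb4, which sets the level of the activator of phosphofructokinase, read 7.78, 7.66, 8.26 and 8.25 against 8.51, 8.64, 7.64 and 7.85. Slc16a3, the lactate exporter, read 9.43, 9.17, 9.82 and 9.80 against 9.89, 9.95, 9.48 and 9.50. In all 3 genes arrays 1 and 2 were the low pair in WT_DMSO and the high pair in KO_DMSO, and the high pair was the same in KO_RA839. Some called genes were split between the same arrays. Pkm and Hk3 read lower on arrays 1 and 2 than on the others in KO_DMSO and KO_RA839. Vegfa read higher on them in both knockout groups, and Ndrg1 in both wild-type groups, while Eno2 in KO_DMSO was not split this way. What set these arrays apart was not tested.

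The same genotype comparison was made under RA839, on other arrays. It is not an independent repeat of the first. Within a genotype, DMSO and RA839 arrays of the same number deviated together (correlations of 0.27 to 0.46 in wild type and 0.66 to 0.70 in knockout). Both comparisons also take their spread from 1 fit of all 16 arrays. Of the 14 enzymes 1 was higher and 5 lower, and of the 16 other genes 5 were higher and 4 lower, against 14.6% of all genes called higher and 15.8% lower. The differences were 2.64 ± 0.22 for Egln3, 1.32 ± 0.20 for Vegfa, 1.07 ± 0.13 for Ankrd37 and 0.46 ± 0.10 for Egln1. They were -0.95 ± 0.14 for Ndrg1, -1.11 ± 0.20 for P4ha2, -0.76 ± 0.16 for Hk3, -0.64 ± 0.18 for Eno2, -0.62 ± 0.09 for Pkm and -0.30 ± 0.06 for Aldoa (adjusted p from 3.9e-07 to 0.0169, limma). Hif1a was not called here (0.22 ± 0.09, adjusted p = 0.0675). The call on Eno2 was lost without WT_RA839 number 2 (adjusted p = 0.0504). Without _x_at and _s_at probe sets, Hk3 differed by -0.41 (adjusted p = 0.0931) and Ndrg1 by -0.45 (0.0692), and neither was called. Adm was lower in the knockout here, by 1.47 ± 0.24 (adjusted p = 0.000298), WT_RA839 being the group in which it had risen, and its second probe set was lower by 0.74. There were 4 more small calls: Slc2a1, the main glucose transporter, by -0.30 ± 0.10 (adjusted p = 0.0349), Pgk1 by -0.20 ± 0.07 (0.0454), Ldha, lactate dehydrogenase A, by 0.24 ± 0.08 (0.0401) and Pdk1 by 0.34 ± 0.12 (0.0421). The other Pdk1 probe sets did not move together: 1434974_at differed by -1.53 (adjusted p = 0.000174), 1423747_a_at by -0.12 (0.648) and 1435836_at by 0.38 (0.0293), and the mean of all sets by -0.23 (0.0948). With only the groups compared, Slc2a1 (0.0722), Pgk1 (0.114) and Pdk1 (0.0697) were not called. Leaving out single arrays ended the call on Slc2a1 for WT_RA839 number 1, 2 or 4 or KO_RA839 number 1 or 2 (0.0531 to 0.103). It did so on Pdk1 for WT_DMSO number 1, WT_RA839 number 2 or 4 or KO_RA839 number 1, 2 or 4 (0.0504 to 0.121), and on Pgk1 for any of 11 of the 16 arrays (0.0502 to 0.123). The call on Ldha was lost in 9 of the alternatives tried, among them leaving out any of WT_DMSO number 1, WT_RA839 numbers 1, 2 or 4, or KO_RA839 numbers 3 or 4 (adjusted p from 0.0503 to 0.118). Without both WT arrays numbered 2, 3 enzymes were called in place of 6, and the lost calls were Eno2 (-0.54, adjusted p = 0.0594), Ldha (0.23, 0.0625) and Pgk1 (-0.20, 0.0523). Those on Slc2a1 (-0.24, 0.0723) and Pdk1 (0.28, 0.1) were lost as well.

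**Figure D3:**
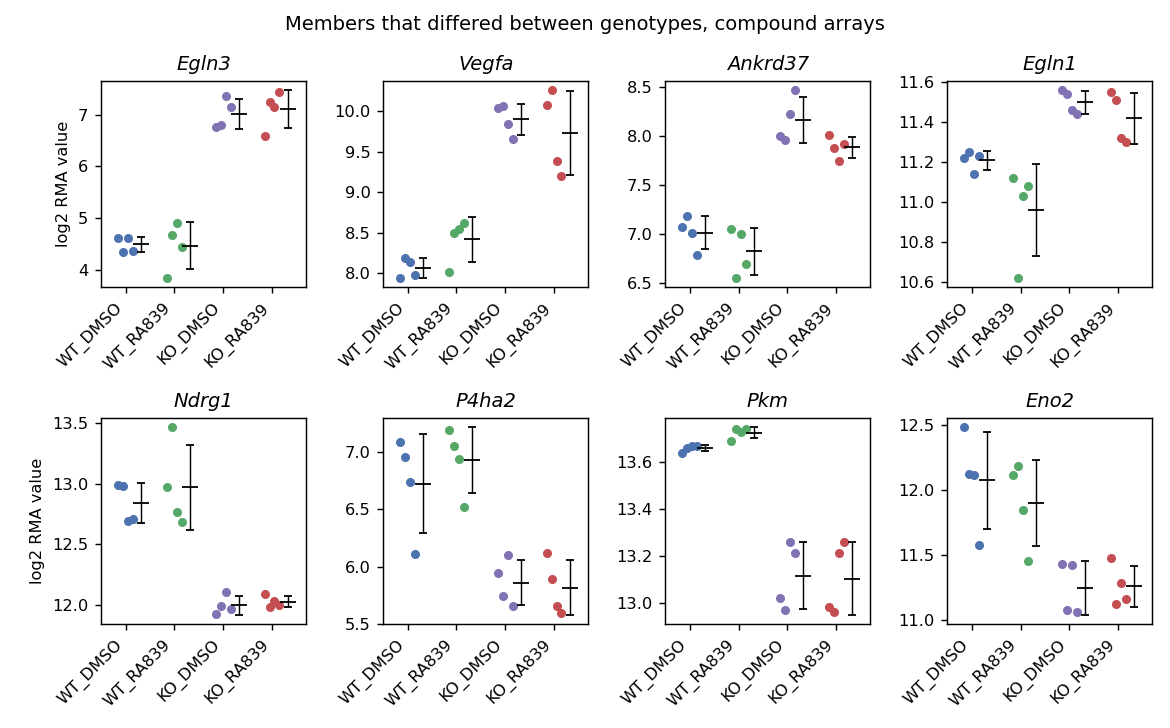
Log2 RMA value on each array (points) with group mean and SD (black) for 8 genes in the 4 compound groups; each panel has its own axis. Egln3, Vegfa, Ankrd37 and Egln1 sit higher on the knockout arrays and Ndrg1, P4ha2, Pkm and Eno2 lower, with overlap only for Eno2 under RA839.

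Several measures of the cultures differed with genotype beside these genes. The Actb 3′ to 5′ difference was 1.68 to 2.04 on the WT arrays other than WT_RA839 number 2 and 1.28 to 1.45 on the KO arrays. Of 9 macrophage markers in DMSO, Fcgr1 (1.98) and Cd14 (1.83) were higher and Itgam (-1.04) and Mrc1 (-0.42) lower in the knockout. Of 9 neutrophil markers 3 were lower, with list means of 5.63 to 6.29 in WT_DMSO and 5.13 to 6.08 in KO_DMSO. Of 7 fibroblast markers 4 were lower, with list means of 4.38 to 4.98 and 4.23 to 4.58. None of 5 proliferation markers was called, with list means of 10.36 to 10.64 in WT_DMSO and a wider 9.55 to 10.80 in KO_DMSO. Of 5 T cell markers 1 was lower, of 5 erythroid markers 1 was lower, and of 6 dendritic cell markers 1 was higher. No B cell, mast cell or osteoclast marker was called. The part of these measures in the genotype differences was not tested.

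With the Keap1 siRNAs, the changes other than Adm were small and did not all run one way. With siKeap1-1, 4 of 14 enzymes rose (28.6%) and 2 fell (14.3%), and of the 16 other genes 4 rose (25%) and 3 fell (18.8%). Of all genes, 8.67% were called higher and 6.39% lower. With siKeap1-2, 2 enzymes rose (14.3%), 5 of the other genes rose (31.2%) and none fell, against 6.32% and 4.89% of all genes. The median change was 0.09 for the enzymes and 0.16 for the other genes with siKeap1-1, 0.04 and 0.23 with siKeap1-2, and 0.02 and 0.03 for all genes. Both comparisons use the same siControl arrays.

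Besides Adm, 3 genes rose with each siRNA. P4ha2 read 7.20, 7.43, 7.32 and 7.25 with siControl, 8.07, 8.15, 8.40 and 8.14 with siKeap1-1, and 7.85, 7.95, 8.04 and 7.74 with siKeap1-2. Both siKeap1 groups lay wholly above siControl, by 0.89 ± 0.09 (adjusted p = 4.35e-05, limma) and 0.59 ± 0.09 (adjusted p = 0.00102). Ndrg1 read 12.03, 11.83, 11.82 and 11.98, then 12.43, 12.43, 12.49 and 12.62, then 12.26, 12.16, 12.21 and 12.44 in the same order of groups. It too was higher on every siKeap1 array, by 0.58 ± 0.08 (adjusted p = 0.00031) and 0.36 ± 0.08 (0.00976). With siKeap1-2 its call was lost when its probe sets were averaged (0.27, adjusted p = 0.0743) and without _x_at and _s_at sets (0.26, 0.186). Pkm, the enzyme that makes pyruvate, read 13.45, 13.48, 13.53 and 13.59, then 13.79, 13.84, 14.00 and 13.87, then 13.69, 13.74, 13.78 and 13.78. It was higher on every siKeap1 array, by 0.36 ± 0.06 (adjusted p = 0.00129) and 0.23 ± 0.06 (0.0218). The call with siKeap1-2 was lost without siControl number 1 or 2 or siKeap1-2 number 2, 3 or 4 (adjusted p from 0.054 to 0.0663).

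Ndrg1, P4ha2 and Pkm were the genes that had been lower in the knockout and were higher with each siRNA, in experiments that share no array. They are 50% of the 6 listed genes lower in KO_DMSO, 37.5% of the 8 raised by siKeap1-1 and 42.9% of the 7 raised by siKeap1-2. Of all genes lower in KO_DMSO, 21.2% were raised by siKeap1-1 and 17.4% by siKeap1-2, which is 33.8% and 38.1% of the genes these siRNAs raised. Egln1 was the 1 listed gene higher in the knockout and lower with siKeap1-1, as were 13.4% of all genes higher in KO_DMSO. Vegfa, by contrast, differed 3.58-fold between genotypes on its brighter probe set. There its change was -0.20 (95% interval -0.59 to 0.18) with siKeap1-1 and 0.01 (-0.37 to 0.39) with siKeap1-2. Its dimmer set averaged 6.12 in WT_DMSO and 6.57 in KO_DMSO. That set averaged 6.93 with siControl, 7.21 with siKeap1-1 and 7.18 with siKeap1-2, and each siKeap1 array lay above the siControl array of the same number. The genotype and siRNA contrasts were not tested against each other.

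**Figure D4:**
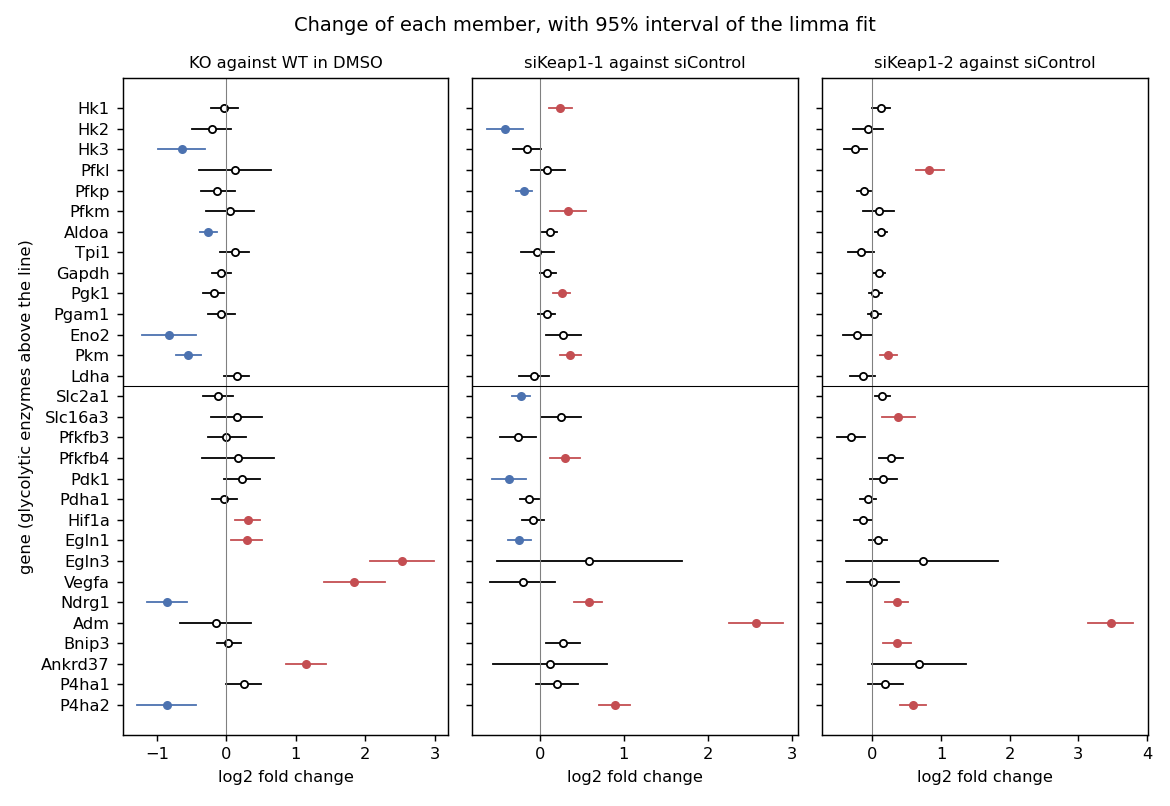
Log2 fold change (points) with 95% interval (lines) of the 30 genes in KO against WT in DMSO and in each siKeap1 group against siControl; filled red and blue mark genes called higher and lower at an adjusted p under 0.05, open black those not called. Each panel has its own axis. Ndrg1, P4ha2 and Pkm are blue on the left and red in the other panels, and the interval of Egln3 is wide on the siRNA arrays.

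Other genes responded to 1 siRNA in a way the other did not share, and the 2 siRNAs were compared directly. Against siKeap1-2, 2 enzymes were higher and 1 lower with siKeap1-1, and 4 of the other genes were lower, against 3.57% of all genes called higher and 3.88% lower. Pfkl read 9.82, 9.92, 9.88 and 9.70 with siControl, 9.91, 9.90, 10.18 and 9.71 with siKeap1-1, and 10.52, 10.73, 10.75 and 10.65 with siKeap1-2. It stood apart on the siKeap1-2 arrays, by 0.83 ± 0.09 against siControl (adjusted p = 0.000141), and siKeap1-1 was lower than siKeap1-2 by 0.74 ± 0.09 (0.000732). Slc2a1 read 14.31, 14.29, 14.32 and 14.29 with siControl, 14.14, 14.08, 14.02 and 14.08 with siKeap1-1, and 14.52, 14.41, 14.44 and 14.40 with siKeap1-2. The glucose transporter thus lay below siControl with the first siRNA (-0.22 ± 0.05, adjusted p = 0.00789) and above it with the second (0.14, adjusted p = 0.0753), and the difference between the siRNAs was -0.37 ± 0.05 (0.000851). Its 3 probe sets gave -0.34 to -0.46 for that difference.

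Pdk1, the kinase that closes the pyruvate dehydrogenase gate, read 10.66, 10.68, 10.73 and 10.54 with siControl, 10.50, 10.39, 10.07 and 10.16 with siKeap1-1, and 10.86, 10.88, 10.84 and 10.66 with siKeap1-2. It fell with siKeap1-1 (-0.37 ± 0.09, adjusted p = 0.0192), and the siRNAs differed by -0.53 ± 0.09 (0.00487). The fall against siControl was not called without siControl number 2 or 3 or siKeap1-1 number 4 (adjusted p from 0.0514 to 0.057). Egln1 fell with siKeap1-1 (-0.25 ± 0.06, adjusted p = 0.017; 0.0584 without siControl number 2) and differed between the siRNAs by -0.33 ± 0.06 (0.00628). Pgk1, phosphoglycerate kinase, read 13.72, 13.74, 13.76 and 13.69, then 13.95, 13.97, 14.04 and 14.00, then 13.75, 13.77, 13.80 and 13.75. It rose with siKeap1-1 alone among the calls (0.26 ± 0.04, adjusted p = 0.00195), and the siRNAs differed by 0.22 ± 0.04 (0.0109; 0.0516 with only these 2 groups in the fit). Eno2 was higher with siKeap1-1 than with siKeap1-2 by 0.51 ± 0.10 (0.00739), although neither group was called against siControl (0.28 and -0.22).

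**Figure D5:**
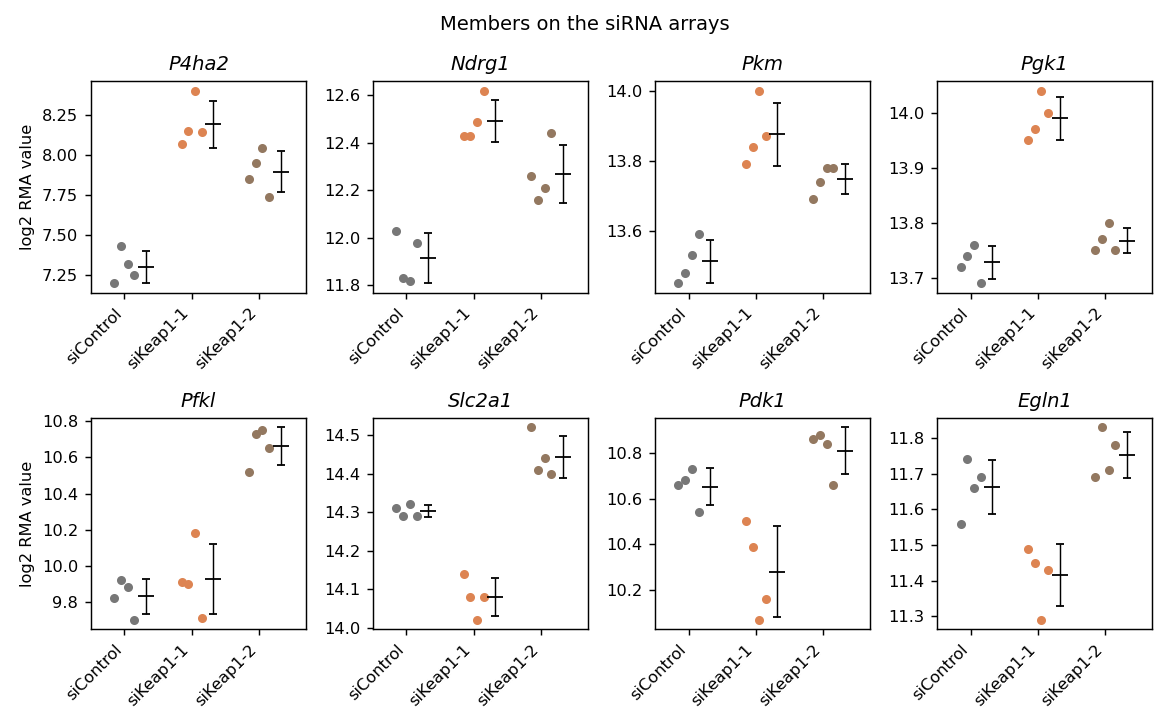
Log2 RMA value on each array (points) with group mean and SD (black) for 8 genes in the 3 siRNA groups; each panel has its own axis. P4ha2, Ndrg1 and Pkm are higher in both siKeap1 groups, Pgk1 only with siKeap1-1 and Pfkl only with siKeap1-2, and Slc2a1, Pdk1 and Egln1 are lower with siKeap1-1 than with siKeap1-2.

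The remaining calls of the siRNA comparisons were small. With siKeap1-1, the hexokinases moved apart: Hk1, the widespread form, rose by 0.24 ± 0.06 (adjusted p = 0.0169) and Hk2, the inducible form, fell by 0.42 ± 0.10 (0.0139). The phosphofructokinase genes did as well, with Pfkm higher by 0.34 ± 0.10 (0.0425) and Pfkp lower by 0.19 ± 0.05 (0.0148), a call lost with only these 2 groups in the fit (0.0566) and on the mean of its probe sets (0.0708). Pfkfb4 rose by 0.30 ± 0.08 (0.0289). The call on Hk1 was lost without siControl number 3 (0.0521). Pfkfb4 lost its call without any 1 of the siControl arrays (0.0517 to 0.0775), and Pfkm without any 1 of them, siKeap1-1 number 1, 2 or 3, or siKeap1-2 number 2 or 3 (0.051 to 0.117). With siKeap1-2, Slc16a3 rose by 0.38 ± 0.11 (0.0454) and Bnip3, a mitophagy receptor, by 0.36 ± 0.09 (0.0268). Leaving out 1 array ended the call on Slc16a3 for siControl number 2, 3 or 4, siKeap1-1 number 1 or 2 and each siKeap1-2 array (0.0573 to 0.119) and on Bnip3 for siControl number 2, 3 or 4 and siKeap1-2 number 1, 2 or 3 (0.0502 to 0.0846). None of the genes of these remaining calls was called between the siRNAs, and some moved alike with the siRNA that gave no call. With siKeap1-1, Bnip3 averaged 12.21 and Slc16a3 10.60, against 11.94 and 10.36 with siControl. With siKeap1-2, Pfkfb4 averaged 9.58 against 9.32 and Pfkp 11.97 against 12.09, while Hk2 (12.20 against 12.27) and Pfkm (8.54 against 8.45) moved less.

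The counts with each siRNA depended on the block and on single arrays. Arrays of the same number deviated together across the siRNA groups, and with the number as a block siKeap1-1 had 6 enzymes higher and 2 lower and 8 other genes higher and 5 lower, against 13.6% and 10.5% of all genes. With siKeap1-2 the block gave 3 enzymes higher and 3 lower and 10 other genes higher and 2 lower, against 11.4% and 9.08%. Between the siRNAs it gave 3 enzymes higher and 2 lower and 2 other genes higher and 5 lower, against 7.64% and 7.01%. The clearest case is Egln3, which read 7.32, 6.78, 5.75 and 5.84 with siControl, 8.03, 7.18, 6.72 and 6.14 with siKeap1-1, and 8.07, 7.56, 6.99 and 5.99 with siKeap1-2. Its arrays spanned about the same range in every group, and on each number both siKeap1 arrays lay above the siControl array. Without the block the changes of 0.59 ± 0.51 and 0.73 ± 0.51 did not pass (adjusted p = 0.515 and 0.423), and with it they did (0.0188 and 0.00857). In the fit without the block, the second Egln3 probe set changed by -0.07 with siKeap1-1 and 0.55 with siKeap1-2, neither called. It read 7.02, 6.62, 6.15 and 5.99 with siControl, and 7.60, 7.23, 6.69 and 6.47 with siKeap1-2, higher on each number. With siKeap1-1 it read 7.23, 6.36, 6.23 and 5.69, which was not higher on each number. Ankrd37 was called with siKeap1-2 only with the block (0.68, adjusted p = 0.00343, against 0.204 without it). The block also brought calls on Aldoa (0.12 and 0.13) and P4ha1 (0.21 and 0.19), both higher, and on Pfkfb3 (-0.26 and -0.31), lower, with siKeap1-1 and siKeap1-2 respectively. Hif1a was called lower with siKeap1-2 in the blocked fit (-0.14). Its other probe sets averaged slightly higher there than with siControl, the brightest of them 12.21 against 12.14. Without the block, enzymes called with siKeap1-2 numbered 1 in place of 2 without siControl number 1 or 2 or siKeap1-2 number 2 or 3, and 4 without siKeap1-1 number 3. Other genes called numbered 3 in place of 5 without siControl number 2 or 3 or siKeap1-2 number 1, 2 or 3. With siKeap1-1 they numbered 4 in place of 7 without siControl number 2.

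Proliferation markers and some macrophage markers fell along with these changes. Of 5 proliferation markers 4 were lower with siKeap1-1 and 2 with siKeap1-2, with list means of 8.77 to 9.20 on the siControl arrays, 8.03 to 8.44 with siKeap1-1 and 8.24 to 8.62 with siKeap1-2. Of 9 macrophage markers 4 and 3 were lower, among them Fcgr1 (-0.72 and -1.06) and Cd14 (-0.58 and -0.91). Of 6 dendritic cell markers 2 were lower with siKeap1-1, Flt3 (-0.52) and Ccr7 (-0.91), and none was called with siKeap1-2. Their list means were 6.66 to 7.15 with siControl, 6.43 to 6.69 with siKeap1-1 and 6.42 to 6.93 with siKeap1-2. Of 9 neutrophil markers S100a8 was higher with each siRNA (0.52 and 0.55) and Elane with siKeap1-1 (0.53), with list means of 5.80 to 6.83, 5.78 to 6.77 and 5.90 to 6.97. Of 7 fibroblast markers Pdgfra was higher with each (0.98 and 1.88), with list means of 4.58 to 4.82, 4.66 to 5.0 and 4.75 to 5.12, and Ctsk, an osteoclast marker, was higher with siKeap1-2 (0.43). Their part in the changes of the glycolytic and HIF genes was not tested.

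Of the 30 genes, 6 were called in none of the 8 comparisons without the block, on the probe sets that stand for them: Tpi1, Gapdh, Pgam1, Pfkfb3, Pdha1 and P4ha1. Other sets of Tpi1 and Pdha1 did differ under RA839. Without both WT arrays numbered 2, Tpi1 set 1415918_a_at was higher in the knockout by 0.43 (adjusted p = 0.00393, limma). Pdha1 set 1449137_at was higher by 0.37 (0.00834), and Tpi1 set 1452927_x_at differed by 0.19 (0.134). Gapdh, the glyceraldehyde phosphate dehydrogenase often used as a reference gene, was read by a 3′ control probe set. It ranged from 14.35 to 14.53 on the compound arrays and from 14.58 to 14.74 on the siRNA arrays. In the same order, Pgam1 ranged from 12.80 to 13.15 and from 13.37 to 13.51. Tpi1 ranged from 11.94 to 12.36 and from 12.40 to 12.95.

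Genes of the same pathways outside the list were examined as 2 further sets. Of 29 measured genes of glycolysis, gluconeogenesis and pyruvate handling, 3 were higher (10.3%) and 5 lower (17.2%) in the knockout in DMSO, against 11.2% and 13.8% of all genes. Among the called genes, those with the largest differences were Aldoc, an aldolase (-0.76 ± 0.18), Mpc1, a subunit of the mitochondrial pyruvate carrier (-0.68 ± 0.14), Fbp1, a gluconeogenic phosphatase (-0.63 ± 0.13), and Ldhb (-0.54 ± 0.13). Called or not, the 29 genes differed by -0.76 to 1.04. Of 30 measured HIF regulators and targets, 6 were higher (20%) and 4 lower (13.3%). Lox, lysyl oxidase, differed by 2.50 ± 0.60, Arnt2, a HIF partner, by -1.94 ± 0.33, Epas1, the gene of HIF-2 alpha, by 1.22 ± 0.35, and Gbe1, the glycogen branching enzyme, by -0.98 ± 0.13 (adjusted p from 9.75e-05 to 0.0186, limma). Vhl, whose protein targets HIF alpha for destruction and which was singled out after its values were seen, was higher by 0.81 ± 0.11 (adjusted p = 7.79e-05). RA839 changed none of these 59 genes in wild-type cells in the fit without the block. With arrays of the same number blocked within genotype, Gbe1 was called higher (0.56, adjusted p = 0.00523, against 0.0754 without the block) and Slc2a6, a glucose transporter family member, lower (-0.45, 0.0384 against 0.794). The blocked test also called the genotype difference of the Gbe1 response (0.74, adjusted p = 0.0235, against 0.395).

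With siKeap1-1, 1 of the 29 rose (3.45%) and 3 fell (10.3%), and of the 30, 4 rose (13.3%) and 5 fell (16.7%), against 8.67% and 6.39% of all genes. With siKeap1-2, 2 of the 29 rose and 2 fell (6.9% each), and of the 30, 3 rose (10%) and 5 fell (16.7%), against 6.32% and 4.89%. With the replicate block the numbers for siKeap1-1 were 3 and 3 (10.3% each), and 7 and 7 (23.3% each), against 13.6% and 10.5% of all genes. For siKeap1-2 they were 6 and 4 (20.7% and 13.8%), and 7 and 5 (23.3% and 16.7%), against 11.4% and 9.08%. Gbe1 rose by 1.93 ± 0.10 and 2.05 ± 0.10 (adjusted p = 5.28e-07 and 3.19e-07), from 9.27 to 9.55 on the siControl arrays to 11.10 to 11.51 and 11.30 to 11.64. Its arrays did not overlap, and it was thus lower in the knockout and higher with each siRNA, like Ndrg1, P4ha2 and Pkm. Lox ran the other way, by -1.97 ± 0.24 and -1.29 ± 0.24 (adjusted p = 0.000179 and 0.0043). Epas1 fell with siKeap1-1 by 1.28 ± 0.14 (adjusted p = 7.72e-05), and the siRNAs differed by -1.16 ± 0.14 (0.00041). Pdp2, a pyruvate dehydrogenase phosphatase, fell with each siRNA, by 0.66 ± 0.10 and 0.59 ± 0.10.

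Of the 30 genes, 19 have more than 1 probe set, and some probe sets of a gene disagreed in sign where at least 1 of them was called. This held for 4 genes in the knockout comparison in DMSO, 5 under RA839 and 1 in each siRNA comparison. Pdk1 was the widest case. Its probe set 1434974_at read 4.95, 4.68, 5.66 and 4.99 in WT_DMSO and 3.50, 3.48, 2.96 and 3.38 in KO_DMSO, a difference of -1.74 ± 0.23 (adjusted p = 8.39e-05). Its probe set 1435836_at differed by 0.38 (adjusted p = 0.0366), and the set that represents the gene by 0.23 (0.202). The first is the dimmest of the 4 Pdk1 sets, and most of its values given here lie below the median of every compound array (5.61 to 5.71). For Hif1a, the 2 brighter sets differed by 0.31 and 0.29 (both called) and the 2 dimmer ones by -0.15 and -0.20 (neither called). For Pfkp, 1430634_a_at differed by 1.18 (adjusted p = 0.0337) under RA839 while the brightest set differed by -0.03. That set read 7.18, 4.66, 5.94 and 6.53 in WT_RA839, lowest on number 2, and without both WT arrays numbered 2 it differed by 0.70 (0.0728) and was not called.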

How the data were processed

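RNA from 28 samples was hybridised to 1 array each. The authors deposited log2 expression values made by RMA, per the submitters' processing notes; the sources used here give no further step or version. The table holds 45101 probe sets, of which 34958 name 1 gene; 9211 are unnamed here and 932 name several genes and were left out. The brightest probe set per gene (mean of 28 arrays) was kept, giving 18194 genes.

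Groups of each experiment (16 compound and 12 siRNA arrays) were fitted together with limma 3.58.1 in R 4.3.3 (1 coefficient per group, eBayes without trend). P-values were adjusted by Benjamini-Hochberg over all genes and called under 0.05. The fit was tested on simulated data with independent noise on each array. That test does not cover arrays of the same number deviating together. Intervals are 95%, and 4 arrays per group limit precision. The listed genes and all lists were chosen with earlier results of these data known. Named genes were the called ones with the largest changes (up to 5 enzymes and 6 others per comparison), Adm, probe sets that disagree, and up to 4 called genes per further list; the rest are given by counts, ranges or short values.

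Arrays of the same number deviated together within a genotype (wild type: correlations of 0.27 to 0.46; knockout: 0.66 to 0.70) and among the siRNA groups (0.12 to 0.66), so the number was used there as a block; between genotypes the correlations were -0.29 to -0.01. Alternatives were quantile normalization, centring, a trended robust prior, brighter genes only, the mean of a gene's probe sets, no _x_at or _s_at sets, only the groups compared, the replicate block, and leaving out arrays.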

Additional observations from a re-analysis of the deposited data

Results flagged for a closer look

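In 210 checks of 1 gene in 1 group of 4 arrays, 8 arrays stood far from the other 3 relative to the group's range; chance alone gives such a gap in about 1 group in 20. Adm on WT_DMSO number 1 read 6.29, against 7.11 for the nearest array. Array WT_RA839 number 2, the one with the large 3′ to 5′ difference, read lowest for Gapdh (14.35, nearest 14.48) and highest for Pgam1 (13.15, nearest 13.00). The number 4 siRNA arrays read lowest for Pfkfb3 with siKeap1-1 (10.79, nearest 11.01) and siKeap1-2 (10.65, nearest 10.99), and for P4ha1 with siControl (10.77, nearest 11.11) and siKeap1-2 (10.96, nearest 11.28). Aldoa on siKeap1-2 number 1 read 14.52, against 14.56. The causes were not tested.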

How the results depend on the processing

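Of 1207 alternative values for the 54 calls on listed genes, 1092 stayed past the threshold, 114 did not and 1 changed sign; 31 calls were never lost. For 7 of these calls the alternatives were added after the data were seen. The change of sign was Pdk1 in the knockout under RA839, at -0.23 on the mean of its probe sets. Of 552 alternative counts, 504 stayed within 1.5 times and 48 did not. The cause was not tested, except that the brighter-genes setting tests fewer genes and the only-groups setting uses fewer arrays.

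With the replicate block, all genes called under RA839 in WT numbered 486, in the genotype difference of that response 66, and in siKeap1-1, siKeap1-2 and their difference 4371, 3719 and 2665. The block gave 13 other genes for siKeap1-1, 6 enzymes and 12 other genes for siKeap1-2, and 5 enzymes and 7 other genes between the siRNAs. Across genotypes, where numbers do not pair the arrays, the block ended the call on Egln1 in DMSO (adjusted p = 0.0554, limma) and added Pgk1 (0.0461). With only the groups compared, the counts were 65 genes under RA839 in WT, 845 between the siRNAs and 3 enzymes for siKeap1-1. With brighter genes only they were 12 in the genotype difference of the RA839 response, 2759 and 3533 for the knockout in DMSO and under RA839, and for siKeap1-2 6 enzymes and 8 other genes. The trended robust prior gave 5 enzymes and 8 other genes for siKeap1-2. Adm, the 1 other gene called under RA839, was not called with brighter genes only (where it was not tested), without _x_at and _s_at sets, or without both WT arrays numbered 2 (count 0 each); without _x_at and _s_at sets 8 genes were called in the genotype difference. Enzymes called in the knockout under RA839 numbered 3 without both WT arrays numbered 2.

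Leaving out 1 array at a time gave these ranges of counts for all genes, enzymes and other genes. They were 72 to 136, 0 and 1 for RA839 in WT, 8 to 26 for all genes in the genotype difference, 3577 to 5670, 4 and 5 to 7 for the knockout in DMSO, and 4518 to 5631, 4 to 6 and 7 to 10 under RA839. They were 2018 to 2685, 5 to 7 and 4 to 8 for siKeap1-1, 1361 to 2565, 1 to 4 and 3 to 7 for siKeap1-2, and 849 to 1335, 3 to 4 and 4 to 5 between the siRNAs. RMA values carry no depth, and dim probe sets have compressed differences.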
